A study of Mus musculus with 8 samples.

Results

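The data described here are the levels of 10 genes that encode inducible transcription factors in dystrophic and normal skeletal muscle: Fos, Fosb, Fosl1 and Fosl2, Jun and Junb, Egr1, Egr2 and Egr3, and Atf3. They were taken by gene symbol from a table of 55401 genes, and all 10 were found there. The samples were whole tibialis anterior (TA) muscles of male mice at 6 mo of age, 4 from wild-type (WT) C57/Bl6 mice and 4 from mdx5cv mice, a model of Duchenne muscular dystrophy with a mutation in Dmd, the dystrophin gene, on the same strain background. No treatment was named in the labels for either group. Total RNA was sequenced after depletion of ribosomal RNA, and the authors deposited normalized counts, which are the reads of a gene divided by a size factor of the sample. A whole muscle holds fibers, immune cells, fibroblasts, vessels and nerve, so these values are averages over all of its cells.

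Immediate early genes are switched on within minutes of a signal, without any need for new protein, and most of their transcripts are short-lived. The Fos and Jun families encode basic leucine zipper proteins, which pair to form the AP-1 transcription factor, and Atf3 encodes a related protein that binds DNA with Jun partners or with itself. The Egr genes encode zinc finger factors that bind GC-rich sites. In muscle, these factors are known to respond to contraction, stretch and injury, and in fibroblasts, macrophages and endothelial cells to growth factors and cytokines. MAP kinase signaling activates the TCF and CREB proteins. At many of these promoters TCF proteins work with SRF at the CArG box, and CREB proteins act at the cyclic AMP response element (CRE).

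Promoter sequence was available in RefSeq (GRCm38.p6, the mm10 build of the labels) for 7 of the 10 genes: Fos, Fosb, Fosl2, Jun, Junb, Egr2 and Atf3. Egr2 had 5 annotated starts, which gave 11 windows, each from 250 bases before the start to 50 after it. The 5 stretches printed next, each 120 bases before the start and 30 after it, were chosen by motif and by result. They show the CRE core in genes that rose in mdx5cv muscle (Fos, Junb, Atf3 and Egr2) and the CArG box of Egr2 between its 2 CRE cores. The last is Jun, which had none of the motifs searched and did not pass the test. Whether motif and result go together was not tested. Fosl2, which rose at a limma adjusted p of 0.00514, had no CRE core in its window. Sequences read 5′ to 3′ along the gene, and capitals mark the CRE core, TGACG or its reverse complement CGTCA, and in Egr2 also the CArG box.
Fos (chr12:85473770-85473919, + strand): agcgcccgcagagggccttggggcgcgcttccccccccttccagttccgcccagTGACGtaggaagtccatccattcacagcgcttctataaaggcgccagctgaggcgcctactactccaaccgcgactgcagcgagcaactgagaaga
Junb (chr8:84978719-84978868, - strand): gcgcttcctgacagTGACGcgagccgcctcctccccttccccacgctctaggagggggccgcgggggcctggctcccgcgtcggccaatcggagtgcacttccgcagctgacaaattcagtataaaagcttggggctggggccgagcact
Atf3 (chr1:191183304-191183453, - strand): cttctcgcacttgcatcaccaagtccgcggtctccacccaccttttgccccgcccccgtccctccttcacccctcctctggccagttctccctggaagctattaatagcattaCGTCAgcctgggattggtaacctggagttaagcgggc
Egr2, the fourth start (chr10:67537750-67537899, + strand): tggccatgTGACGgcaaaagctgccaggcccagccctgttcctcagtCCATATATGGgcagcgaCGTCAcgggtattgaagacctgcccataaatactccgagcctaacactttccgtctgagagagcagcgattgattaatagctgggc
Jun (chr4:95052193-95052342, - strand): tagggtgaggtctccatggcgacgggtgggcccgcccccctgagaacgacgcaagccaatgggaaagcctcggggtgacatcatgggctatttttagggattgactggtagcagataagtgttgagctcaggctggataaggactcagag

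The motifs were searched on both strands of all 32851 windows in the RefSeq table. The CRE core TGACG was in 20.8% of them, the full CRE TGACGTCA, which contains the core, in 1.79%, the AP-1 site TGANTCA in 7.81%, the Egr site GCGNGGGCG in 5.55% and the CArG box in 1.63%. Of the 7 genes searched, 5 had a CRE core in at least 1 window (Fos, Fosb, Junb, Egr2 and Atf3). This count is per gene and the 20.8% is per window, so they are not like measures. Egr2 had 5 windows, and its CRE cores lay in the 3 that overlap. The CRE core lay at positions -66 to -62 in Fos, with another match further out at -129 to -125. In Junb it was at -106 to -102 and in Atf3 at -7 to -3 on the opposite strand. The Egr site was found in Fosl2, at -79 to -71, and in Fosb, at -50 to -42, and the CArG box in 4 of the 5 Egr2 windows, of which 3 overlap and share 1 match. Neither the AP-1 site nor the full CRE was found in these 11 windows, and none of the 5 motifs was in the Jun window. Only exact matches to the motifs were counted, so tgacatca in the printed Jun stretch, which differs from TGACGTCA by a single base, was not. A match is a description of letters in this window and not of binding.

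**Figure D1:**
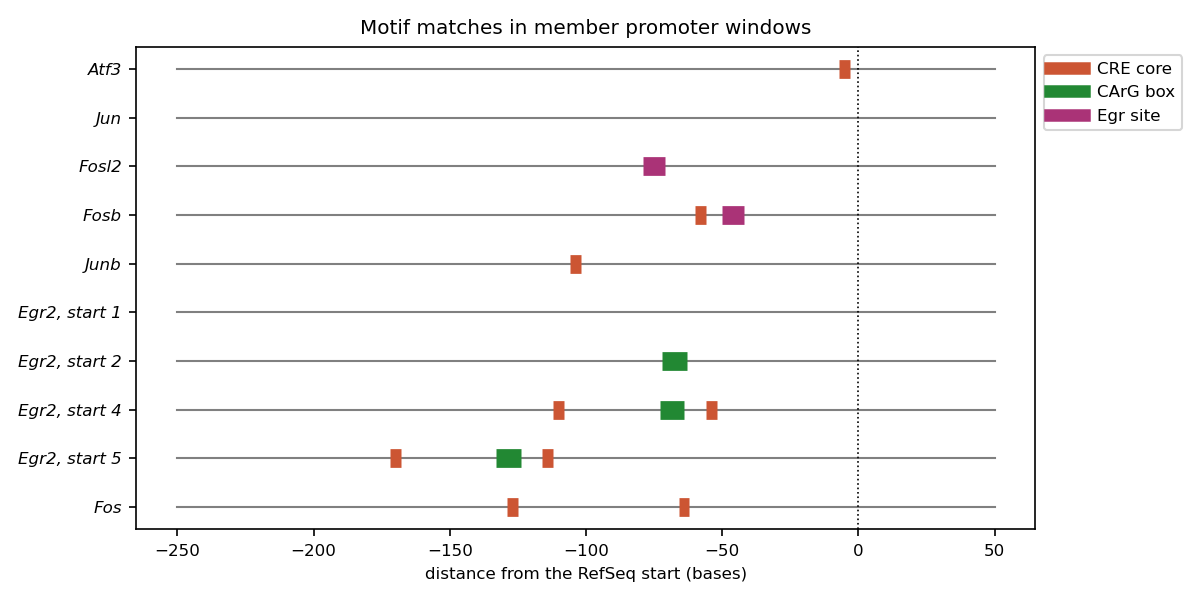
Positions of motif matches in 300-base promoter windows of the members, as distance in bases from each RefSeq start (dotted line at 0); the third Egr2 start lies 1 base from the fourth and is not drawn. CRE cores lie upstream of the start in Fos, Fosb, Junb, Atf3 and Egr2, while the Jun window holds no match.

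Recovered reads ranged from 13175524 to 14921057 per muscle, with size factors of 0.873 to 0.944 in WT and 1.06 to 1.25 in mdx5cv muscles. Dmd, which carries the mutation, had normalized counts of 6169 to 8155 in WT and 3461 to 4400 in mdx5cv muscles, a log2 fold change of -0.81 (SE 0.119, limma adjusted p = 0.000177). The tissue label was borne out by fast fiber markers (Myh4, Myh1, Actn3, Pvalb, Ckm and Acta1), which summed to 911200 to 1116000 in WT and 662200 to 1015000 in mdx5cv muscles. The mdx5cv replicate 4 had the lowest of these sums and the highest macrophage marker sum, 9233 against 3872 to 5307 in the other mdx5cv muscles, and it also held the largest value of all 8 muscles for 7 of the 10 members.

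All 10 members had a higher mean in mdx5cv than in WT muscle. Of these, 8 had normalized counts averaging 10 or more and were tested with limma among 13677 genes, and 6 rose past the threshold (adjusted p under 0.05 and a log2 fold change of at least 1): Fos, Junb, Egr1, Egr2, Egr3 and Atf3. The share of all tested genes that rose past it was 10.3%. No member was lower, at an adjusted p or an unadjusted p under 0.05, in limma, edgeR or DESeq2, where limma found 20.1% of all tested genes lower at an adjusted p under 0.05 and 3.27% lower past the threshold. Fosl2 rose at an adjusted p under 0.05 with a smaller fold change, which makes 7 members against 20.9% of all tested genes, and Jun did not pass. The median log2 fold change was 1.74 over the 8 tested members and 0.00 over all genes tested. Egr2 and Egr3 reached the minimum mean only through their mdx5cv values, so they had to be higher there, and the count of 6 is not independent of the filter. Where a normalized count of at least 10 was asked of every muscle, 6 members were tested and 4 rose past the threshold (Fos, Junb, Egr1 and Atf3), against 6.19% of 11784 genes. In edgeR 6 of 8 rose past it (10.7% of all genes tested), with equal totals 7 of 8 (16.9%), and without a filter and in DESeq2, which also took in Fosb and Fosl1, 8 of 10 (7.73% and 10.1%). In these bulk samples a change in the number of cells of a type and a change in RNA per cell cannot be told apart, and the labels do not say more of the replicates than their numbers, so p-values measure the spread between these muscles.

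**Figure D2:**
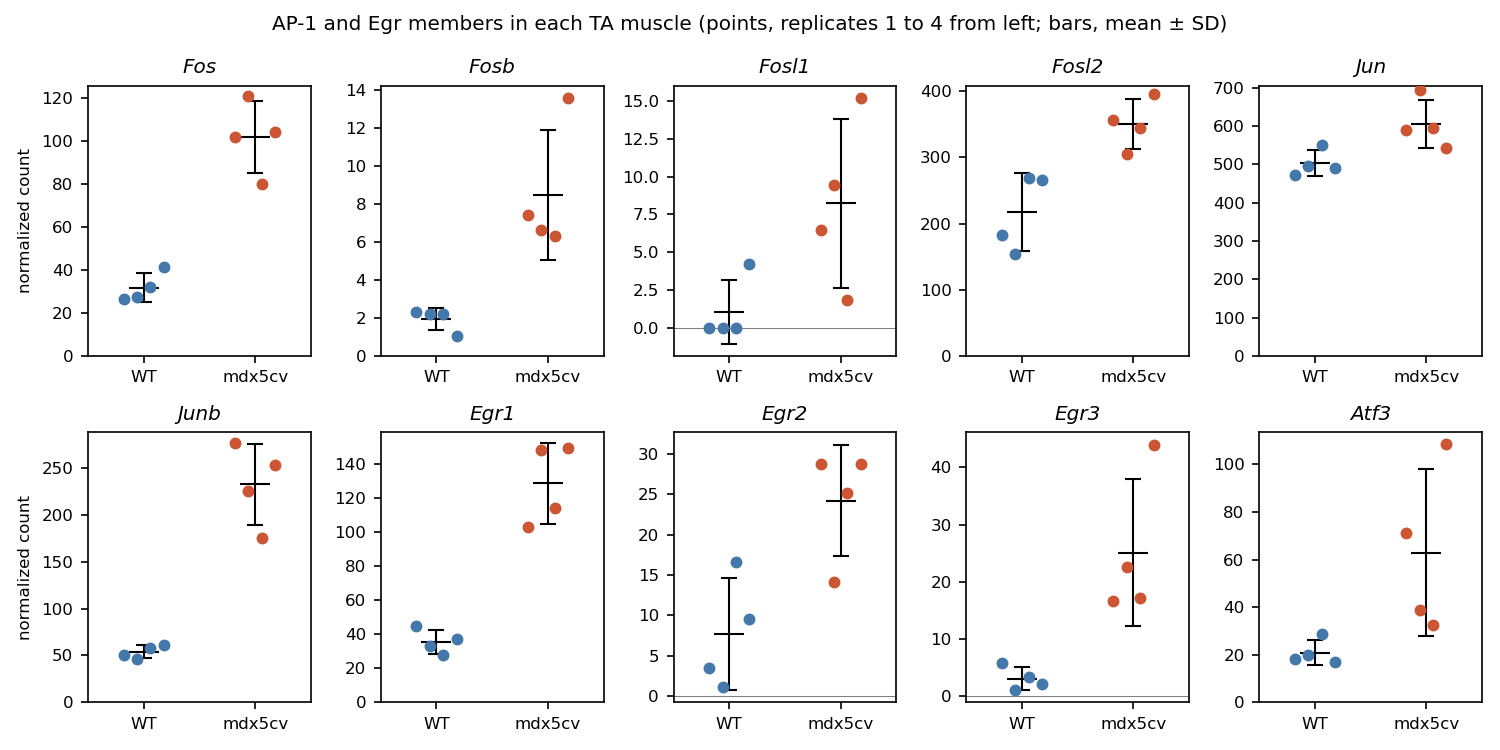
Normalized counts of the 10 members in each TA muscle (points, replicates 1 to 4 from left to right), with the mean and SD of 4 muscles per group as bars. The groups are apart in 7 members and overlap in Fosl1, Jun and Egr2, and mdx5cv replicate 4 is the highest point in 7 panels.

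Fos (chr12:85473890-85477273, + strand), the founding partner of AP-1, had normalized counts of 26.4, 27.4, 32.1 and 41.3 in WT muscles and of 101.9, 120.7, 80.1 and 103.9 in mdx5cv muscles. The lowest mdx5cv muscle was thus well above the highest WT muscle. Its mean went from 31.8 ± 6.82 to 101.7 ± 16.7 (SD, n = 4), and the log2 fold change was 1.65 (SE 0.191, 95% interval 1.24 to 2.07, limma adjusted p = 2.82e-05). The CRE core printed above for this gene lies in a promoter for which these data hold no binding measurement.

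Fosb (chr7:19302696-19310051, - strand) and Fosl1 (chr19:5447547-5455946, + strand), the other inducible Fos proteins, were near the detection limit. For Fosb the normalized counts were 2.29, 2.19, 2.21 and 1.06 in WT and 7.41, 6.60, 6.30 and 13.6 in mdx5cv muscles, from 7 and 39 reads in all. Every mdx5cv muscle exceeded every WT muscle, and a two-sided exact permutation test gave p = 0.0286, the smallest that 4 muscles against 4 allow. Fosl1, which encodes Fra-1, was at 0 in WT replicates 1 to 3 and at 4.24 in WT replicate 4, with 6.49, 9.43, 1.80 and 15.2 in mdx5cv muscles. A count of 0 allows up to 3 reads, or 3.29 to 3.44 normalized counts in those 3 muscles, so the lowest mdx5cv value cannot be told from them. The groups overlapped in Fosl1 and the same test gave p = 0.0571 (exact permutation, two-sided). Neither gene was in the limma test. Without the filter on low values the limma log2 fold changes were 1.65 for Fosb (adjusted p = 0.0151) and 2.35 for Fosl1 (adjusted p = 0.00985), and in DESeq2 2.14 (adjusted p = 0.021) and 2.93 (adjusted p = 0.0293).

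Fosl2 (chr5:32135801-32157842, + strand), which encodes Fra-2, had the highest level per kb of exon of the Fos genes in WT muscle. Its values were 182.2, 153.6, 268.7 and 265.9 in WT and 356.7, 304.7, 344.9 and 395.6 in mdx5cv muscles. The groups did not overlap, although the WT muscles fell into a lower and a higher pair. The log2 fold change was 0.72 (SE 0.174, 95% interval 0.34 to 1.09, limma adjusted p = 0.00514), which passes the test but not the minimum fold change.

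Jun (chr4:95049034-95052222, - strand), the classical AP-1 partner of Fos, had the highest level per kb of exon and the smallest fold change of the tested members. Normalized counts were 472.2, 496.9, 550.6 and 491.5 in WT and 589.2, 693.4, 594.3 and 543.4 in mdx5cv muscles. The highest WT muscle exceeded the lowest mdx5cv muscle, which was replicate 4. Its log2 fold change of 0.26 (SE 0.105, 95% interval 0.04 to 0.49) had a limma adjusted p of 0.0608. The spread of Jun was small, with a residual SD at the 11.3 percentile of all tested genes. With each sample scaled to equal totals its log2 fold change was 0.62 (limma adjusted p = 0.000634), and without mdx5cv replicate 4 it was 0.31 (limma adjusted p = 0.0356), while the adjusted p over all 19 alternatives ranged from 0.000634 to 0.255.

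Junb (chr8:84974484-84978718, - strand), whose protein pairs with Fos members and is a weaker activator than Jun, was apart in all muscles. In WT muscles it had normalized counts of 50.4, 46.1, 57.5 and 61.4, and in mdx5cv muscles of 276.1, 225.5, 175.6 and 252.5. The lowest mdx5cv muscle, replicate 3, was still far above the highest WT muscle. The log2 fold change was 2.08 (SE 0.162, 95% interval 1.73 to 2.43, limma adjusted p = 1.83e-06). Within the same muscles, the log2 level of Junb minus that of Jun was between -3.40 and -2.98 in WT and between -1.75 and -1.09 in mdx5cv, with no overlap.

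Egr1, at chr18:34859823-34864984 on the + strand, encodes the zinc finger factor best known as an early reporter of growth factor signaling. It had normalized counts of 44.7, 32.9, 27.6 and 37.1 in WT muscles and of 102.8, 148.1, 114.4 and 149.4 in mdx5cv muscles. The groups were apart, and mdx5cv replicates 2 and 4 were nearly equal at the top. The log2 fold change was 1.83 (SE 0.189, 95% interval 1.42 to 2.24, limma adjusted p = 1.21e-05), from means of 35.6 ± 7.20 and 128.7 ± 23.7 (SD, n = 4).

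Egr2 (chr10:67535475-67542188, + strand), which directs myelination in Schwann cells and is also induced in macrophages and T cells, had the widest spread among WT muscles of all members (SD 1.36 on the log2 scale). Its normalized counts were 3.44, 1.10, 16.6 and 9.53 in WT and 28.7, 14.2, 25.2 and 28.8 in mdx5cv muscles. WT replicate 3 exceeded mdx5cv replicate 2, so the groups overlapped. The log2 fold change of 1.92 had a wide error (SE 0.557, 95% interval 0.71 to 3.12, limma adjusted p = 0.0146), and the residual SD was at the 99.2 percentile of all tested genes. With a pseudocount of 10 in place of 1 the log2 fold change was 1.01, still past the threshold.

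Egr3 (chr14:70077203-70082614, + strand), which is required for the sensory muscle spindles, had low counts and the largest log2 fold change of the tested members at the pseudocount of 1 used here. Its normalized counts were 5.73, 1.10, 3.32 and 2.12 in WT and 16.7, 22.6, 17.1 and 44.0 in mdx5cv muscles. No WT muscle reached the lowest mdx5cv muscle, and replicate 4 was far above the other mdx5cv muscles. The log2 fold change was 2.70 (SE 0.453, 95% interval 1.73 to 3.68, limma adjusted p = 0.000449), and with a pseudocount of 10 it was 1.38, under those of Junb (1.91), Egr1 (1.6) and Fos (1.42). In edgeR the log2 fold change of Egr3 was 3.02 and in DESeq2 3.05, above that of Junb (2.11 in both). Without mdx5cv replicate 4 the gene fell below the minimum mean and was not tested.

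Atf3 (chr1:191170296-191218039, - strand), a stress-induced factor that can repress as well as activate its targets, had the widest spread among mdx5cv muscles of the tested members (SD 0.791 on the log2 scale). In WT it had normalized counts of 18.3, 19.7, 28.7 and 16.9, and in mdx5cv muscles of 71.3, 38.7, 32.4 and 108.7. The groups were apart, with replicates 1 and 4 far above replicates 2 and 3. Its log2 fold change was 1.40 (SE 0.337, 95% interval 0.68 to 2.13, limma adjusted p = 0.00494), and without mdx5cv replicate 4 it was 1.09 (limma adjusted p = 0.0138, within a range of 0.000451 to 0.0188 over all 19 alternatives).

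**Figure D3:**
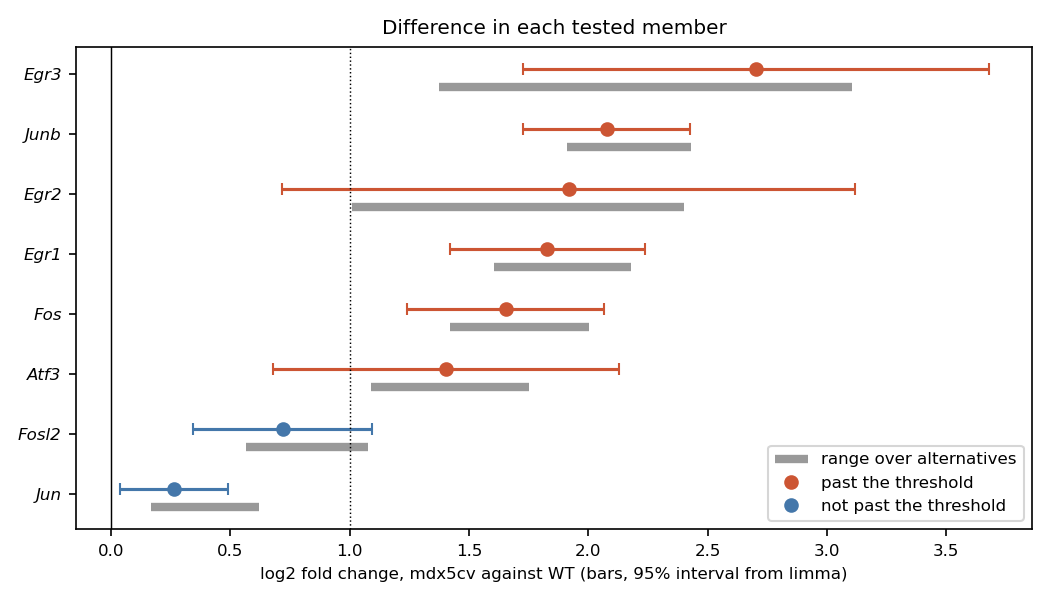
Log2 fold change of each tested member, mdx5cv against WT, with the 95% interval from limma (thin bars) and the range over the other processing choices tried (grey bars); the dotted line marks the minimum log2 fold change of 1. Egr3, Junb, Egr2, Egr1, Fos and Atf3 pass the threshold, Fosl2 and Jun do not, and every value lies above 0.

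The groups did not overlap in 6 of the 8 tested members, all with mdx5cv above WT, a pattern held by 20.3% of all tested genes. Fosb, which was not tested, also showed it. Since mdx5cv replicate 4 was the top sample for so many members, the fit was repeated without it. Fos then had a log2 fold change of 1.64, Fosl2 of 0.66, Junb of 2.03, Egr1 of 1.75 and Egr2 of 1.82, and 5 of the 7 members still tested passed the threshold, against 8.25% of 13542 genes.

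Levels can be compared between genes only per length, so normalized counts were divided by exon length in kb. In WT muscle the order was Jun (157.7 ± 10.5), Junb (23.4 ± 3.0), Fosl2 (22.5 ± 6.05), Fos (13.5 ± 2.90), Atf3 (9.72 ± 2.47), Egr1 (7.93 ± 1.61), Egr2 (2.25 ± 2.04), Egr3 (0.696 ± 0.453), Fosl1 (0.521 ± 1.04) and Fosb (0.311 ± 0.0942) per kb (SD, n = 4). Only Jun and Junb, and Egr1 and Egr2, were neighbours in this order whose ranges over muscles did not overlap. In mdx5cv muscle Jun remained at the top with 189.7 ± 19.8 per kb, followed by Junb (101.0 ± 18.8), Fos (43.2 ± 7.08), Fosl2 (36.2 ± 3.86), Atf3 (29.1 ± 16.3) and Egr1 (28.7 ± 5.28). Fos and Fosl2 had thus changed places in the order, though their ranges overlapped within mdx5cv muscle as they did in WT. The gaps between Jun and Junb, between Junb and Fos, and between Egr1 and Egr2 exceeded the spread between mdx5cv muscles.

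The makeup of each family was followed as shares of its sum per kb. For the Jun family, the remaining member Jund, which is expressed more steadily than the immediate early genes, was added for completeness. Junb went from 8.15% ± 1.03 of the Jun family in WT to 22.1% ± 4.2 in mdx5cv muscle and Jun from 54.9% ± 3.89 to 41.6% ± 4.47 (SD, n = 4), neither with overlap, and Jund was at 37.0% and 36.3% with overlapping groups. The family sum was 288.6 ± 30.8 per kb in WT and 456.6 ± 5.12 in mdx5cv muscle.

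In the Fos family, Fosl2 held the largest share in each WT muscle, 60.9% ± 4.33 on average, against 43.0% ± 5.81 in mdx5cv muscle. Fos took 37.1% ± 3.75 in WT and 50.9% ± 5.15 in mdx5cv muscle, again without overlap (SD, n = 4). The sum went from 36.8 ± 9.22 to 84.8 ± 9.76 per kb. Fosb and Fosl1 together stayed minor contributors, with overlapping shares. In the Egr family the sum went from 10.9 ± 2.01 to 41.5 ± 7.49 per kb while the shares of all 3 genes overlapped between groups. Egr1 held 74.4% ± 17.1 of it in WT and 69.2% ± 6.25 in mdx5cv muscle. As shares of a sum, these values are not affected by the scaling of the samples.

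**Figure D4:**
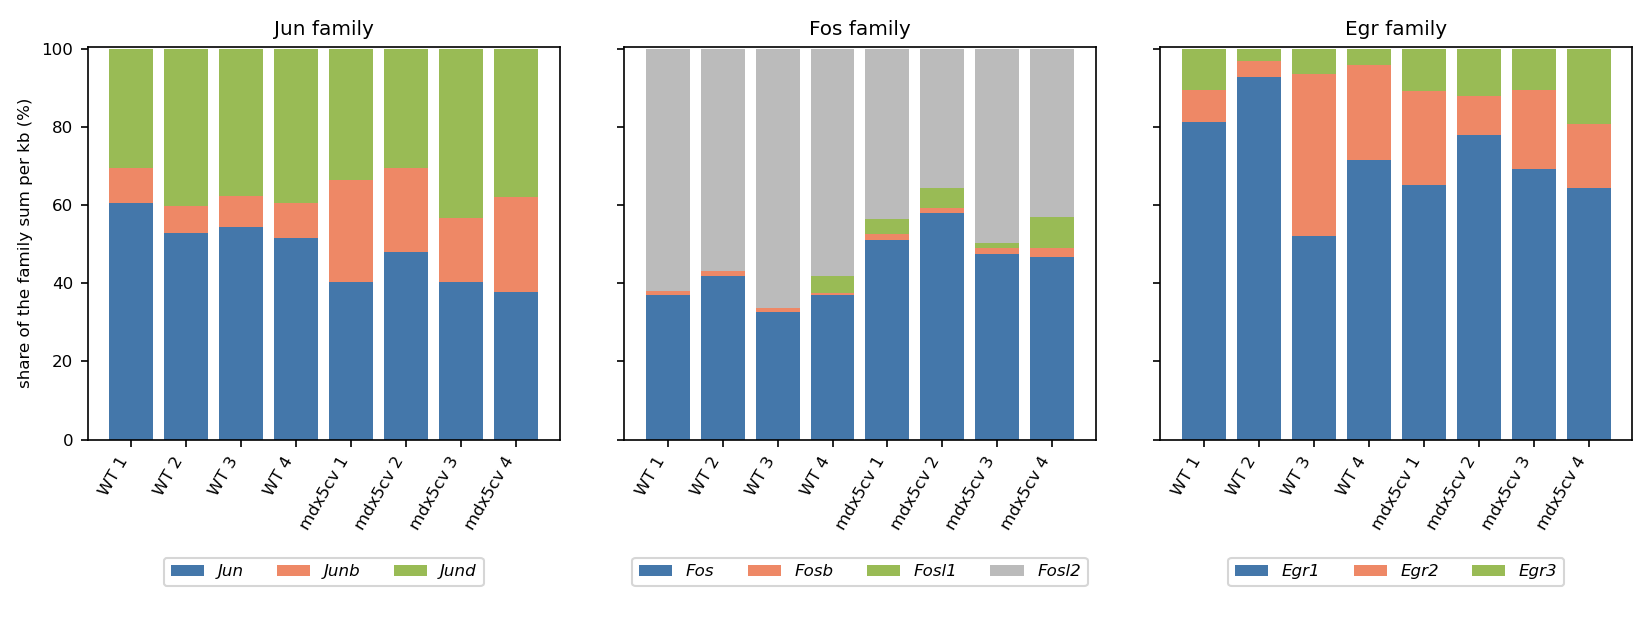
Share of each gene in the sum of its family per kb of exon (%), in each of the 8 TA muscles, for the Jun family (with Jund), the Fos family and the Egr family. Junb and Fos take larger shares in every mdx5cv muscle than in any WT muscle, while the Egr shares vary most among WT muscles.

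Of 15 partner genes of AP-1 and ATF proteins 12 were tested, and 1 rose past the threshold, a share near the 10.3% of all tested genes. This was Jdp2, whose protein represses AP-1 sites, with a log2 fold change of 1.03 (limma adjusted p = 0.00146) that fell under 1 in 4 of 19 alternatives. At an adjusted p under 0.05 alone, Jdp2, Jund and Mafg were higher and Atf4 was lower. Jund had 179.3 ± 36.3 normalized counts in WT and 276.7 ± 44.9 in mdx5cv muscle (SD, n = 4), a log2 fold change of 0.63 (limma adjusted p = 0.00876). Atf4, a factor of the integrated stress response that is known to induce Atf3, had 1153 ± 62.1 and 733.5 ± 54.2 (log2 fold change -0.65, limma adjusted p = 0.000168). The median log2 fold change over the 12 was 0.05, with 3 higher and 1 lower at an adjusted p under 0.05. Of all tested genes 20.9% were higher and 20.1% lower at that adjusted p. With centring on the median the median of the 12 was -0.05. With equal totals it was 0.41, with 7 higher and 1 lower, where the median of all genes tested was 0.36. Batf, Batf2 and Batf3 were not tested, with mean normalized counts of 1.1, 1.4 and 1.1 in WT and of 4.3, 7.8 and 9.4 in mdx5cv muscle. In DESeq2, which took in all 15 genes, 3 rose past the threshold (10.1% of all genes tested). There 5 were higher and 1 lower at an adjusted p under 0.05, and the median was 0.295. Without a filter 3 rose past the threshold (7.73% of all genes tested).

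Factors that act upstream of these promoters depended on the scaling. None of 10 SRF, TCF and CREB genes passed the threshold in either direction in limma or in the fit to equal totals, and Srf was lower at an adjusted p under 0.05 alone (735.0 ± 173.7 against 493.6 ± 72.2 normalized counts, log2 fold change -0.55, limma adjusted p = 0.0146), which it was not with equal totals. That scaling turned the list, with 9 of 10 log2 fold changes above 0 in place of 3, 2 genes higher at an adjusted p under 0.05 in place of none, and a median of 0.35 in place of -0.01. Of 11 MAP kinase genes 1 rose past the threshold, a share near the 10.3% of all tested genes. This was Mapk7, which encodes ERK5 (log2 fold change 1.29, limma adjusted p = 0.00698). It missed the threshold in 1 of 19 alternatives, the fit without WT replicate 2. Mapk3, which encodes ERK1, was higher and Mapk9, Map2k4 and Mapkapk2 were lower at an adjusted p under 0.05 alone. Of all tested genes 20.9% were higher and 20.1% lower at that adjusted p. Of the 11 log2 fold changes 3 were above 0. With equal totals 8 were above 0, 2 passed the threshold as higher (16.9% of all genes tested) and none was lower at that adjusted p. These are transcript levels, and the activity of a kinase is set by phosphorylation. Of the Egr partners, Nab2, an Egr target whose protein represses Egr factors, rose from 39.4 ± 11.6 to 116.2 ± 8.20 normalized counts (log2 fold change 1.59, limma adjusted p = 7.58e-05), Nab1 had a log2 fold change of 0.05 (limma adjusted p = 0.806), and Egr4 and Wt1 were listed at 0 in all muscles.

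Other immediate early genes were mixed. Of 35 such genes 34 were tested, and 6 rose past the threshold: Nr4a3, Socs3, Dusp5, Ier2, Sik1 and Plk3. The share of all tested genes that rose past it was 10.3%. Dusp5 and Plk3 had WT means under 10 and reached the filter only through mdx5cv muscle. The count was 2 with at least 10 in every muscle, where 6.19% of all tested genes rose past the threshold. With equal totals it was 9 of 34, where 16.9% of all tested genes did. Nr4a3, an orphan nuclear receptor induced by exercise, had a log2 fold change of 2.25 (limma adjusted p = 0.00025), and Socs3, a feedback inhibitor of cytokine signaling, of 2.18 (limma adjusted p = 3.19e-05). Plk3 was at 1.15 (limma adjusted p = 0.0219) and missed the threshold in 4 of 18 alternatives, with values down to 0.64 and adjusted p up to 0.0728. Gadd45g, a growth arrest gene, fell past the threshold at -1.07 (limma adjusted p = 0.00742), with overlapping groups, and missed it in 4 of 19 alternatives. The median over the 34 was 0.21. Nr4a1, often induced together with Fos and Egr1, had 761.5 ± 240.8 and 862.2 ± 170.9 normalized counts (SD, n = 4) with a limma adjusted p of 0.438.

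Known targets of AP-1 and Egr factors were mostly higher. Of 20 such genes 17 were tested, 12 rose past the threshold and none fell, with a median log2 fold change of 2.48, where 10.3% of all tested genes rose past it. However, 6 of the 12 had WT means under 10, so the filter kept them only because they were higher in mdx5cv muscle. With at least 10 in every muscle the count was 5, where 6.19% of all tested genes rose past the threshold. The list was also chosen with earlier results of these data known. Mmp12, a macrophage elastase, had the largest difference with a log2 fold change of 7.05 (limma adjusted p = 8.27e-07), followed by Mmp3, or stromelysin, with 4.85 (limma adjusted p = 4.97e-06). The smallest past the threshold were Vim, which encodes the intermediate filament of mesenchymal cells, with 2.02 (limma adjusted p = 5.86e-06) and Hmox1, which encodes heme oxygenase, with 1.03 (limma adjusted p = 0.0206), and Hmox1 missed the threshold in 7 of 19 alternatives. Many of these genes are also expressed by macrophages and fibroblasts, whose markers are given next.

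**Figure D5:**
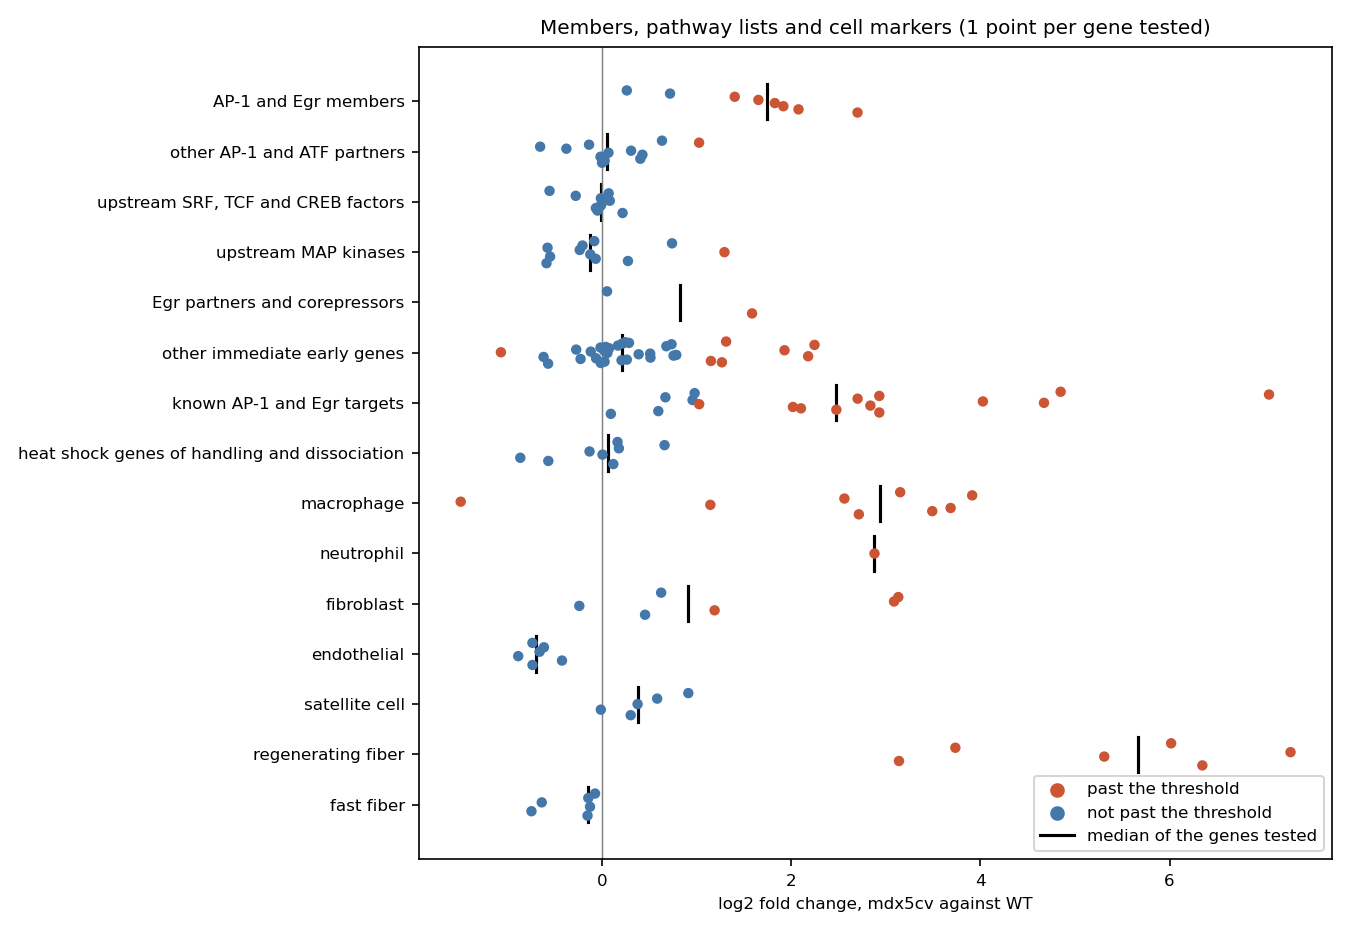
Log2 fold change of each tested gene, mdx5cv against WT, for the members, the pathway lists and the cell marker lists, with 1 point per gene and the median as a black line. The members have a median of 1.74 and the SRF, TCF and CREB genes a median near 0. The medians of the macrophage and regenerating fiber markers lie further to the right than that of the members, while the macrophage marker Cd163 lies to the left of 0.

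Marker sums of several cell types were also higher in mdx5cv than in WT muscles. Of 8 macrophage markers 7 rose past the threshold, with Cd68 (3.91) and Lyz2 (3.69) at the top, and Cd163, a marker of resident macrophages, fell (log2 fold change -1.49); their normalized counts summed to 582.2 to 896.2 in WT and to 3872 to 9233 in mdx5cv muscles. All 6 markers of regenerating fibers rose past the threshold, led by Mymk with 7.28. Their sums were 118.5 to 142.6 in WT and 2175 to 8502 in mdx5cv muscles, with Mymx at 0 in WT muscles. Of these 6, 3 had WT means under 10, as had 1 of the 7 macrophage markers that rose. The filter kept these genes only because they were higher in mdx5cv muscle. The share of all tested genes that rose past the threshold was 10.3%. Of 6 fibroblast markers 3 rose past the threshold (Col1a1, Col3a1 and Lum), with sums of 5365 to 8125 and 17680 to 31690. Col3a1 and Col1a1 held most of the sum in mdx5cv muscle, with means of 12660 and 6996. Pdgfra and Dpt were higher at an adjusted p under 0.05 alone, while Dcn was not, with means of 3090 in WT and 2488 in mdx5cv muscle. Neutrophil markers were close to the detection limit, with sums of 4.58 to 14.3 and 28.8 to 98.3, Retnlg at 0 in all muscles. Csf3r alone was tested (log2 fold change 2.88), and with a WT mean of 6.02 it reached the filter only through mdx5cv muscle. Csf3r made up most of these sums, while S100a9 had means of 1.91 in WT and 2.05 in mdx5cv muscle and Ly6g of 0.276 and 0. Macrophage, regenerating fiber and fibroblast sums were all highest in mdx5cv replicate 4, as were 7 of the members. Fos and Jun were highest in mdx5cv replicate 2 and Junb in replicate 1, and Jun was lowest of the mdx5cv muscles in replicate 4. For Egr1 (149.4 against 148.1 in replicate 2) and Egr2 (28.8 against 28.7 in replicate 1) the lead was small. The part of these cell types in the levels of the members was not tested.

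No endothelial marker of 6 passed the threshold and 5 were lower at an adjusted p under 0.05, where 20.1% of all tested genes were lower. With equal totals 2 were lower at that adjusted p. The endothelial sums were 2859 to 3447 in WT and 1765 to 2254 in mdx5cv muscles. Of 6 satellite cell markers 5 were tested and none passed the threshold, but Pax7, which marks satellite cells, was higher at an adjusted p under 0.05 (log2 fold change 0.91, limma adjusted p = 0.00925). Of all tested genes 20.9% were higher at that adjusted p. The satellite cell sums did not overlap, at 387.4 to 425.8 in WT and 433.0 to 732.8 in mdx5cv muscles. With equal totals 4 of the 5 markers were higher at an adjusted p under 0.05 and 1 passed the threshold (16.9% of all genes tested). Of the 8 heat shock genes listed for handling and tissue dissociation, none was higher at an adjusted p under 0.05. Hspe1 and Hspa8 were lower (1 of the 8 with equal totals), while 5 of the 8 log2 fold changes were above 0 (4 in edgeR and in DESeq2). The sums were 9318 to 11000 in WT and 6835 to 8315 in mdx5cv muscles. Hspa8 held most of these sums, with means of 8954 in WT and 6038 in mdx5cv muscle.

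The genes most like Fos, Egr1 and Atf3 over the 8 muscles were found by the root mean square difference in log2 deviation from the WT mean. For Fos these were Sbno2 (0.147), Glis3 (0.180) and Tap1 (0.191), for Egr1 Glis3 (0.207), Gm45606 (0.215) and Ptpre (0.225), and for Atf3 Trpv2 (0.180), Atad2 (0.244) and Zbtb7c (0.256). No other member was among the 3 nearest because members were left out of the search. The measure includes the difference between the groups, which all of these genes show.

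Several members share their locus with another gene on the opposite strand. Jun overlaps the antisense gene Junos, which had 102.3 normalized counts in WT and 96.1 in mdx5cv muscle on average, and Junb overlaps Prdx2, with 647.7 and 696.9. Fosl1 overlaps Ccdc85b, with 104.3 and 115.1, and Atf3 overlaps Gm24748, which was at 0. The libraries were stranded, but whether the counting used the strand is not given in the sources used here, so reads of these pairs may not have been fully separated.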

How the data were processed

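Bulk RNA-seq of TA muscles was analysed, 4 WT and 4 mdx5cv, with groups taken from the genotype labels. The submitters' processing notes name Trim Galore 0.6.4, STAR 2.6.0c, featureCounts and DESeq2 1.26.0 with mm10. The annotation is not given in the sources used here. The values the authors deposited are a signal, the normalized count of each gene. Dividing by the value of 1 read gave whole reads for 100% of values (tolerance 0.01). Replicates differed beyond sampling noise (chi-square per degree of freedom of 9.55 or more), so none was counted as a copy.

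Groups were compared with limma 3.58.1 (R 4.3.3; lmFit, eBayes with trend, two-sided, Benjamini-Hochberg) on log2(normalized count + 1) for 13677 genes with a mean of at least 10. Log2 fold changes are on this scale, and those of low genes depend on the pseudocount. As alternatives the recovered reads were fitted with edgeR 4.0.16 (quasi-likelihood) and DESeq2 1.42.0. The limits for counts of 0 cover counting error only, and limma intervals cover the spread between muscles. Coordinates and exon lengths are from GENCODE M21 (GRCm38), matched without ID versions (55140 IDs). Scripts were tested on simulated data.

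The members and gene lists were chosen with earlier results of these data known. Named genes are the members, Dmd, up to 2 highest and 2 lowest changes past the threshold per list, and the 3 genes most like Fos, Egr1 and Atf3. Jund, Mafg, Atf4, Batf, Batf2, Batf3, Srf, Mapk3, Mapk9, Map2k4, Mapkapk2, Nab1, Nr4a1, Dusp5, Ier2, Sik1, Hspe1, Hspa8, Pax7, Pdgfra, Dpt, Dcn, S100a9 and Ly6g were named after their values were seen. A marker list with 1 gene that is not reported here was left out of the text and the plots. For a symbol listed under several IDs, the row with most reads was used (1 row left out). Alternatives were other pseudocounts, filters and scalings, no variance trend, a replicate block, and each replicate left out.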

Additional observations from a re-analysis of the deposited data

Results flagged for a closer look

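The log2 values of the 10 members were examined for a muscle far from the other 3 of its group, by Dixon's ratio above 0.829. Of 20 sets of 4 values 2 were marked, where chance gives about 1. Fosb was lowest in WT replicate 4, at 1.04 on the log2(normalized count + 1) scale against 1.68 to 1.72 in the other WT muscles, which is 1 read against 2 in each. Fosl1 was highest in the same muscle, at 2.39 against 0 in the other WT muscles, which is 4 reads against none. Both rest on a few reads.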

How the results depend on the processing

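The number of members that rose past the threshold was 6 in the test reported, 8 without a filter on low values and in DESeq2, 7 with equal totals, 4 with at least 10 in every muscle and 5 to 6 with a replicate left out, and no member was lower under any of these. Egr3 could not be tested without mdx5cv replicate 4, where its mean fell under 10. Fosl2 passed the threshold only with equal totals (log2 fold change 1.08), a scaling that moved the median of all genes to 0.36 and the share of higher among all calls from 76.0% (1414 higher, 447 lower) to 92.0% (2329 higher, 202 lower). Over all genes 1861 passed the threshold, 2844 without the filter, where 28501 genes were tested, and 1004 with at least 10 in every muscle. Of the listed genes 41 passed it, and 24 with at least 10 in every muscle, where fewer genes were tested. With the replicate block 6 members rose, and 1428 genes rose and 454 fell. Correlations of the deviations of same-numbered muscles were 0.0309 to 0.146, so the numbers were not taken to pair the muscles. Depth limits Fosb, Fosl1, Egr2 and Egr3, which had 4 to 28 reads over the WT muscles.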
